A study of Homo sapiens with 4 samples.

Results

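CD274 (PD-L1) and PDCD1LG2 (PD-L2), the ligands of the inhibitory T cell receptor PD-1, were examined together with JAK2, which lies near them on chromosome 9p24, and with CMTM6, CMTM4, SPOP, COPS5, GSK3B and STUB1, which act on the PD-L1 protein. These 9 genes were taken by name from the 19740 genes with a probe on the array. Each probe whose RefSeq accession belonged to one of them was kept, which gave 11 of the 34127 probes, with a pair each for CD274 and PDCD1LG2. The cells were Hs746T, an established gastric carcinoma line in which MET is amplified and carries an exon 14 skipping mutation. Total RNA was measured on 4 single-colour Agilent 44K (V2) arrays of a single slide, with 1 array per condition: DMSO, the MET kinase inhibitor PHA665752, a scrambled (sc) siRNA, and a MET siRNA. The siRNA-treated cells were harvested 48 h after transfection, and the dose and time of PHA665752 were not named for the array. All conditions share this single cell line, and the labels name no other cells in the cultures.

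PD-L1 and PD-L2 belong to the B7 family and restrain T cells when they bind PD-1. Transcription of CD274 is known to follow interferon gamma through its receptor, the kinases JAK1 and JAK2, STAT factors and the transcription factor IRF1. The amount of PD-L1 protein is also set after translation. CMTM6 and CMTM4 are membrane proteins that keep PD-L1 from lysosomal breakdown. SPOP is the substrate adaptor of a CUL3 ubiquitin ligase, STUB1 is a ubiquitin ligase, and GSK3B is a kinase whose phosphorylation of PD-L1 is read by the ligase adaptor beta-TrCP. COPS5 is the catalytic subunit of the COP9 signalosome and can remove ubiquitin from PD-L1. The arrays measured RNA, so protein levels and kinase activity were not measured here.

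The promoter of CD274 is shown because interferon and STAT factors act on this gene through short sequence elements, and the promoter of IRF1 is shown for comparison as a gene of the same pathway. Each sequence holds the 250 bases before the RefSeq start site on GRCh38.p14, written 5′ to 3′ on the strand of the gene, CD274 from chr9:5450292-5450541 on the plus strand and IRF1 from chr5:132490774-132491023 on the minus strand. Capitals mark matches to the searched motifs.
CD274: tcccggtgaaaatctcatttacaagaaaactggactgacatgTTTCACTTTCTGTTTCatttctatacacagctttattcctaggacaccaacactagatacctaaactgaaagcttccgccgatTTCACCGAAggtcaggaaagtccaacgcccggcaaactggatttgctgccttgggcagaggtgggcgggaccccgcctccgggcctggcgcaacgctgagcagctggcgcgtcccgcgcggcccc
IRF1: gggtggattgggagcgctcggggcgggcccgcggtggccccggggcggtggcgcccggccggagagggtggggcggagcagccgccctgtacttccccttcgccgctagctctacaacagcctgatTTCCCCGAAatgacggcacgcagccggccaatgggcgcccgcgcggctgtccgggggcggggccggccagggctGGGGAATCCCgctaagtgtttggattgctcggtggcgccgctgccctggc

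A gamma-activated site (TTCNNNGAA), the kind of element STAT factors bind, was matched 125 to 117 bases before the start of CD274 and 124 to 116 bases before the start of IRF1. CD274 also had 2 overlapping matches to the core of an interferon-stimulated response element (2 copies of GAAA with 2 free bases between them, here read on the opposite strand), at 208 to 199 and 202 to 193 bases before the start. IRF1 had a kappa B match at 50 to 41 bases. Of 35116 promoters of this length, searched on both strands, 6.57% held the gamma-activated site, 3.02% the interferon-stimulated core and 5.21% the kappa B motif. The AP-1 motif (TGANTCA), the E-box (CACGTG) and the TATA letters (TATAAA) were held by 6.57%, 6.34% and 10.7% of promoters, and by neither of the printed ones. Promoters were listed for 6 of the 9 genes, namely CD274, JAK2, CMTM6, CMTM4, SPOP and GSK3B, and among these the matches to any of the 6 motifs were in CD274. A match of letters is a description and says nothing about binding in these cells.

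Each probe of the 9 genes was well above background on each of the 4 arrays. The array-wide share of probes well above background was 61.1% with MET siRNA and between 67.4% and 68.2% on the other arrays. Log2 signals were set relative to the 75th percentile of their array, and differences of these scaled values are called log2 ratios below. With 1 array per condition there was no replicate error and no test. The error given after a ratio is the standard error (SE) implied by the Feature Extraction software's own error for each spot, which is about 10% of a signal and about 0.20 for a log2 ratio. It covers the reading of an array and not the differences between cultures. MET, the targeted gene, was read by a probe spotted 10 times, with mean signals of 221451 under DMSO, 100492 under PHA665752, 190010 under sc siRNA and 77853 under MET siRNA. Its log2 ratio was -1.33 ± 0.20 (SE) for MET siRNA over sc siRNA and -0.93 ± 0.20 for PHA665752 over DMSO (-1.17 with the 50th percentile). Of 7 epithelial marker genes, CDH1 was not well above background with MET siRNA and the rest were well above background on every array. Of 10 immune marker genes, 6 (PTPRC, CD3D, CD8A, CD14, CD68 and ITGAM) were well above background on every array, with CD68 signals of 7212 to 12170.0, and others, CD3E and MS4A1 among them, on none. Of 8 gastric markers, 4 (MUC1, MUC6, TFF1 and TFF2) were well above background on every array, and GKN1 and CDX2 on none. Of 6 mesenchymal markers, 5 were well above background on every array. With PHA665752 the markers past 2-fold, named after their values were seen, were MUC1 at 1.70, FN1 at 1.96 and SPARC at 1.33 (log2 ratios). Among all genes 13.1% were higher past 2-fold in that comparison. Of the 5 mesenchymal markers with a ratio, 1 was below 0, at -0.73. Of the 5 gastric markers with a ratio, 2 were below 0. The part of these marker levels in the ratios below was not tested.

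On the brightest probe of each gene, CD274 had the lowest ratio of the 9 under both MET treatments. With MET siRNA the second probes of CD274 and PDCD1LG2 both gave -0.53. The brighter probe of CD274 gave signals of 2599 under DMSO, 313.8 under PHA665752, 2096 under sc siRNA and 1379 under MET siRNA. Its dimmer probe gave 718.4, 113.2, 583.8 and 418.8 in the same order. On either probe the level with DMSO and that with sc siRNA lay within the reading error of each other, the level with MET siRNA was below both, and the level with PHA665752 was lowest. The log2 ratio for PHA665752 over DMSO was -2.84 ± 0.20 (SE) on the brighter probe, which is 7.14-fold lower, and -2.45 ± 0.21 on the dimmer probe, which is 5.47-fold lower. The ratio of the brighter probe minus that of the dimmer was -0.38 ± 0.29, less than 2 SE from 0. For MET siRNA over sc siRNA the log2 ratios were -0.65 ± 0.20 and -0.53 ± 0.20, or 1.57-fold and 1.44-fold lower. The siRNA ratio was 23.0% and 21.5% of the inhibitor ratio on the log2 scale. In RNA from whole cultures, less CD274 RNA per cell and fewer cells with CD274 RNA cannot be told apart.

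PDCD1LG2 was lower under both MET treatments too, from a dim signal. The probe that stood for the gene, the brighter of the pair, gave 139.4 under DMSO, 45.4 under PHA665752, 186.0 under sc siRNA and 143.8 under MET siRNA. The other probe gave 105.0, 32.0, 143.9 and 103.1. In the order of scaled levels sc siRNA was highest, MET siRNA and DMSO did not differ beyond 2 SE, and PHA665752 was lowest. The log2 ratio for PHA665752 over DMSO was -1.40 ± 0.22 (SE) and -1.50 ± 0.24, or 2.65-fold and 2.83-fold lower. With PHA665752 the signals of these probes were 3.68 and 2.59 times the lowest signal that was well above background on that array. Under normexp background correction, which adds an offset of 50 to each signal, the ratio was -0.68, short of 2-fold. For MET siRNA over sc siRNA the log2 ratios were -0.42 ± 0.21 and -0.53 ± 0.21, or 1.34-fold and 1.44-fold lower. The siRNA ratio was 29.8% and 35.2% of the inhibitor ratio.

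The ligands differed from each other within an array, where the scaling cancels. For PHA665752 the log2 ratio of CD274 minus that of PDCD1LG2 was -1.43 ± 0.30 (SE). For MET siRNA this difference was -0.23 ± 0.29, within the reading error. For sc siRNA over DMSO, a comparison of transfected with DMSO-treated cells, CD274 gave -0.06 ± 0.20 and PDCD1LG2 gave 0.67 ± 0.21. The second probes gave -0.05 ± 0.20 and 0.71 ± 0.21. PDCD1LG2 was thus 1.59-fold higher in the cells with scrambled siRNA than in those with DMSO, and CD274 did not differ beyond the reading error.

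**Figure D1:**
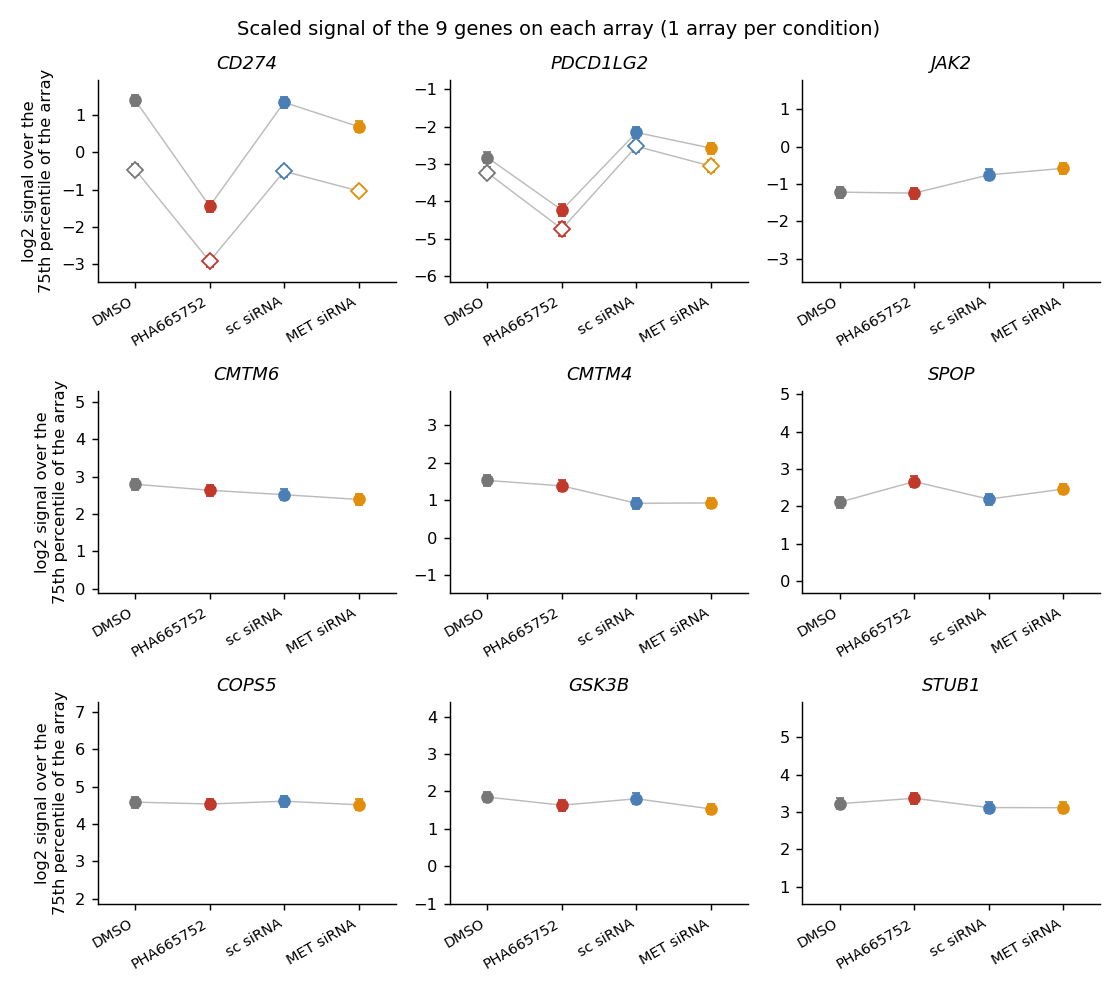
Log2 signal over the 75th percentile of the array (y axis, each panel spanning the same range of log2 units) on the 4 arrays (x axis), 1 panel per gene. Filled points are the probe that stands for the gene, open diamonds the second probe of CD274 and PDCD1LG2, and bars 1 SE from the scanner software. CD274 runs from 1.39 with DMSO to -1.44 with PHA665752, and COPS5 stays between 4.51 and 4.61.

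Of the 9 genes, 2 were past 2-fold with PHA665752, CD274 and PDCD1LG2, both lower. Among the 14322 genes with a ratio in that comparison, 21.1% were past 2-fold, 8.04% lower and 13.1% higher. With MET siRNA 0 of the 9 were past 2-fold, beside 2.73% of 13647 genes, 0.696% lower and 2.04% higher. For sc siRNA over DMSO 0 of the 9 were past 2-fold, beside 4.05% of 14274 genes. Among all genes with a ratio, 0.593% had a lower PHA665752 ratio than CD274 and 4.45% a lower one than PDCD1LG2. For the MET siRNA ratio these shares were 2.25% and 6.84%.

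The other 7 genes ranged from -0.22 to 0.55 in log2 ratio under PHA665752, around a median of -0.05. Under MET siRNA they ranged from -0.27 to 0.27, around -0.0032. Over all genes the medians were 0.07 and -0.02.

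JAK2, the kinase downstream of the interferon gamma receptor, gave signals of 425.5 under DMSO, 360.3 under PHA665752, 491.5 under sc siRNA and 573.4 under MET siRNA. Its log2 ratio was -0.03 ± 0.20 (SE) with PHA665752 and 0.18 ± 0.20 with MET siRNA, both within the reading error. It was higher with sc siRNA than with DMSO, at 0.46 ± 0.20, in the same direction as PDCD1LG2. The log2 ratio of CD274 minus that of JAK2, in which the scaling cancels, was -2.81 ± 0.29 for PHA665752, -0.83 ± 0.29 for MET siRNA and -0.52 ± 0.29 for sc siRNA over DMSO. The same difference for PDCD1LG2 was -1.38 ± 0.30, -0.59 ± 0.29 and 0.21 ± 0.29 in turn.

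CMTM6, which protects PD-L1 at the membrane, gave 6875 under DMSO, 5303 under PHA665752, 4754 under sc siRNA and 4497 under MET siRNA. Its log2 ratios were -0.16 ± 0.20 (SE) with PHA665752 and -0.13 ± 0.20 with MET siRNA. CMTM4, which can take the place of CMTM6, gave 2860.2, 2229.5, 1572 and 1634 in the same order. Its log2 ratios were -0.15 ± 0.20 and 0.01 ± 0.20 under the MET treatments and -0.61 ± 0.20 for sc siRNA over DMSO. At this scaling the levels of CMTM4 fell into pairs, DMSO with PHA665752 and sc siRNA with MET siRNA, more than 2 SE apart. With the 50th percentile CMTM4 gave -0.39 for PHA665752 over DMSO and -0.71 for sc siRNA over DMSO. The distance between the pairs thus depends on the scaling.

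SPOP, the ligase adaptor, gave 4283 under DMSO, 5409.5 under PHA665752, 3801 under sc siRNA and 4735 under MET siRNA. Its log2 ratio was 0.55 ± 0.20 (SE) with PHA665752, or 1.46-fold higher, and 0.27 ± 0.20 with MET siRNA. A ratio at least as far from 0 as the first was found for 44.2% of all genes. STUB1, the other ligase, gave 9246, 8810.3, 7217 and 7438 in the same order, with log2 ratios of 0.14 ± 0.20 and -0.0032 ± 0.20. Its levels on the 4 arrays did not differ between neighbours in their order beyond the reading error.

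COPS5, the deubiquitinating subunit, gave 23733 under DMSO, 19762 under PHA665752, 20262 under sc siRNA and 19586 under MET siRNA. After scaling its log2 ratios were -0.05 ± 0.20 (SE), -0.10 ± 0.20 and 0.02 ± 0.20 for PHA665752 over DMSO, MET siRNA over sc siRNA and sc siRNA over DMSO. GSK3B was read by a probe spotted 10 times, with 8 to 10 usable spots per array, and gave 3571, 2649, 2904 and 2485 in the same order as above. The log2 SD between its spots was 0.04 on the DMSO array and 0.05 on the PHA665752 array. Its log2 ratios were -0.22 ± 0.20 with PHA665752 and -0.27 ± 0.20 with MET siRNA, both within 2 SE of 0 at this scaling. With the 50th percentile the PHA665752 ratio was -0.46. With the median of probes well above background the MET siRNA ratio was -0.57. Both of these lay beyond 2 SE.

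**Figure D2:**
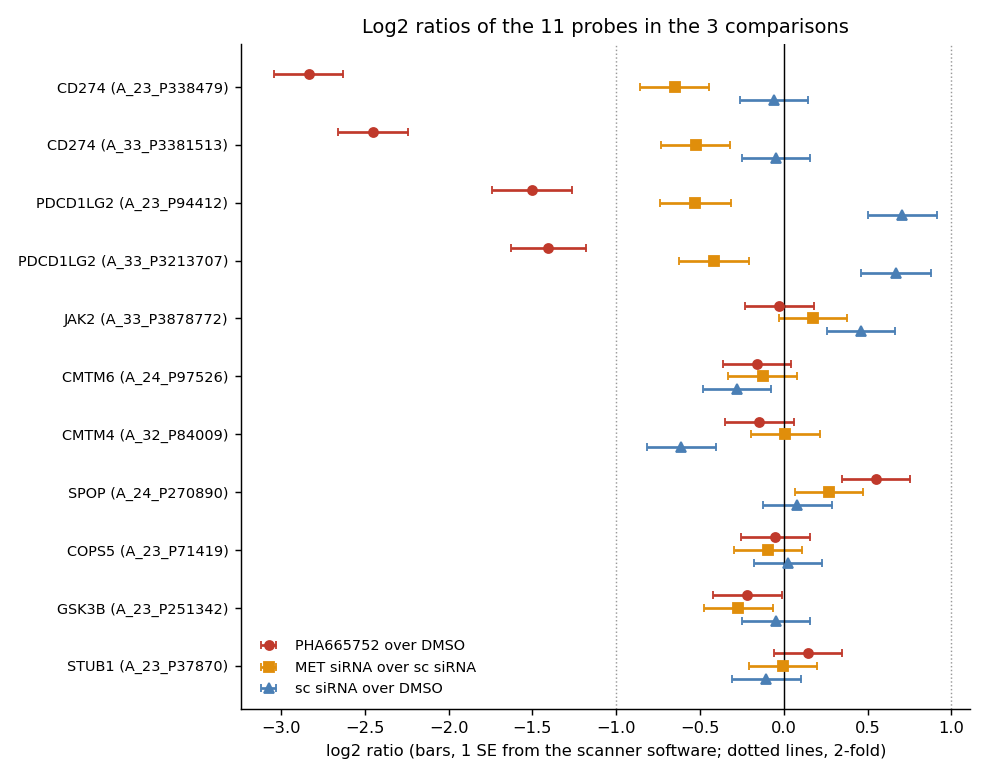
Log2 ratios (x axis) of the 11 probes of the 9 genes (y axis) for PHA665752 over DMSO (circles), MET siRNA over sc siRNA (squares) and sc siRNA over DMSO (triangles), with 1 SE from the scanner software as bars and 2-fold as dotted lines. The pairs of probes of CD274 and PDCD1LG2 lie past the 2-fold line with PHA665752, and each of the other probes lies inside both lines in every comparison.

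The difference between the inhibitor and the siRNA was taken for each gene as the PHA665752 ratio minus the MET siRNA ratio, over arrays that the comparisons do not share. It was -2.18 ± 0.29 (SE) for CD274 and -0.99 ± 0.31 for PDCD1LG2, which were lower with the inhibitor by more than 2 SE. For the other 7 genes this difference was between -0.20 for JAK2 and 0.28 for SPOP, each within 1 SE of 0. The dose and time of the inhibitor are not named, so the agent and the exposure cannot be told apart in this difference.

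**Figure D3:**
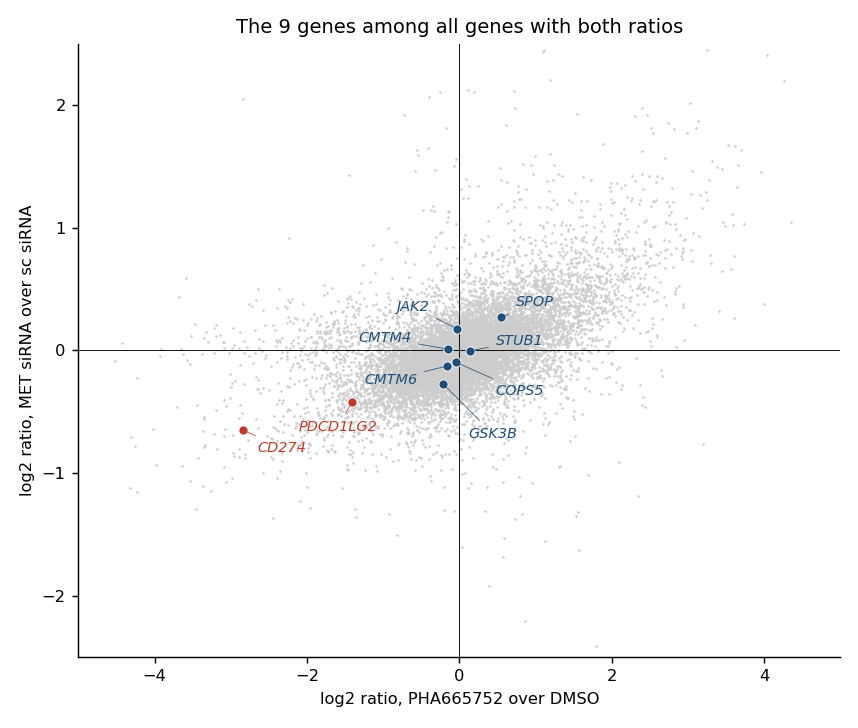
Log2 ratio with PHA665752 (x axis) against log2 ratio with MET siRNA (y axis) for the 13440 genes with both, 24 of which fall outside the plotted range. The ligands (red) lie at -2.84 and -0.65 for CD274 and at -1.40 and -0.42 for PDCD1LG2, and the other 7 genes (blue) lie near the middle of the cloud.

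CD274, PDCD1LG2 and JAK2 were set beside the protein-coding genes around them on 9p24, in the order of the RefSeq annotation. Of 21 genes other than the ligands, JAK2 included, 15 had a ratio in both MET comparisons, and their medians were -0.27 for the inhibitor and -0.06 for the siRNA. With PHA665752 1 of them was past 2-fold, beside 21.1% of all genes, namely GLDC, a subunit of the glycine cleavage system, with -1.27 ± 0.21 (SE), or -0.93 under normexp. PLGRKT, a plasminogen receptor and the gene next to CD274, gave signals of 3620.0 under DMSO, 1650 under PHA665752, 2600 under sc siRNA and 2384 under MET siRNA, with a log2 ratio of -0.92 ± 0.20 with PHA665752, or -1.17 with the 50th percentile, past 2-fold. RIC1, next to PDCD1LG2 on the other side and a regulator of vesicle traffic, gave 0.04 ± 0.20. The PHA665752 ratio of CD274 minus that of PLGRKT was -1.92 ± 0.29. For PDCD1LG2 the difference from PLGRKT was -0.48 ± 0.30, less than 2 SE from 0.

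**Figure D4:**
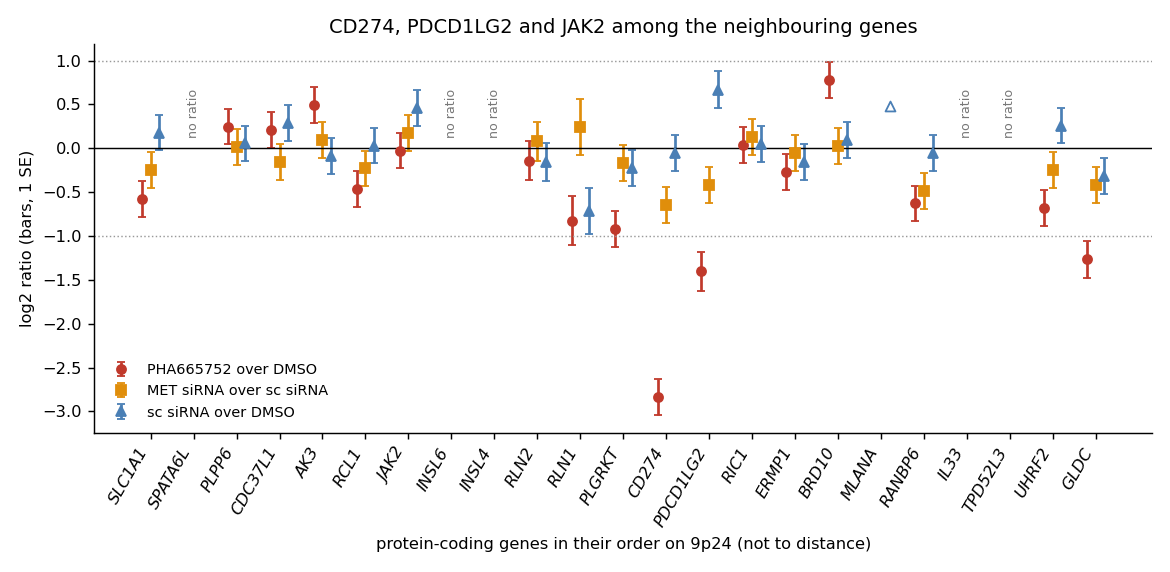
Log2 ratios (y axis, bars 1 SE, dotted lines 2-fold) of the protein-coding genes of 9p24 from SLC1A1 to GLDC in their order along the chromosome (x axis, not to distance), for PHA665752 over DMSO (circles), MET siRNA over sc siRNA (squares) and sc siRNA over DMSO (triangles). An open symbol is a bound, and genes with no ratio are marked so. CD274 (-2.84), PDCD1LG2 (-1.40) and GLDC (-1.27) lie below the lower line with PHA665752.

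The wider set held 111 genes in 10 lists, of which 1 holds the 20 neighbours on 9p24 other than JAK2 and the rest come from the pathways and families around the 9 genes, and 97 of the genes had a ratio in both MET comparisons. With PHA665752 16 of the 97 (16.5%) were past 2-fold, 8 higher and 8 lower, beside 21.1% of all genes. This split depends on the scaling. With the 50th percentile it was 4 higher and 15 lower, beside 9.07% of all genes higher and 12.3% lower, and with the median of probes well above background it was 7 higher and 12 lower, beside 11.4% and 9.38%. With MET siRNA 0 of 97 were past 2-fold, beside 2.73% of all genes. Under normexp the inhibitor count was 10, beside 12.7% of all genes. The list medians ranged from -0.37 for the 9p24 neighbours to 0.16 for the interferon gamma, JAK and STAT genes with PHA665752.

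Of the interferon gamma, JAK and STAT genes, 14 of 16 had a ratio, and with PHA665752 1 was higher and 1 was lower past 2-fold. SOCS1, an inhibitor of JAK kinases that is itself an interferon target, gave signals of 1901 under DMSO, 230.3 under PHA665752, 1334 under sc siRNA and 1138 under MET siRNA. Its log2 ratios were -2.83 ± 0.21 (SE) and -0.28 ± 0.20 under the MET treatments. STAT5A, a STAT factor of cytokine receptors, gave 1.15 ± 0.34 with PHA665752 from signals of 20.1 and 38.6, and this fell to 0.57 under normexp.

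IRF1, a factor through which interferon gamma is known to act on CD274, gave signals of 177.5 under DMSO, 166.9 under PHA665752, 360.9 under sc siRNA and 524.4 under MET siRNA. Both siRNA arrays were thus high and both other arrays low for this gene. For sc siRNA over DMSO the log2 ratio of IRF1 was 1.28 ± 0.21 (SE), and that of CD274 was -0.06 ± 0.20. With PHA665752 IRF1 gave 0.13 ± 0.21, within the reading error (-0.12 with the 50th percentile), and with MET siRNA it gave 0.49 ± 0.20. The CD274 ratios in these comparisons were -2.84 ± 0.20 and -0.65 ± 0.20. A part of IRF1 in the CD274 ratios was not tested. IRF9, a subunit of the factor that binds interferon-stimulated elements, was named after its value was seen and gave 1.97 for sc siRNA over DMSO. Ratios past 2-fold in that direction were found for 2.89% of all genes. Transfection, the scrambled sequence, the DMSO vehicle and any difference in culture time cannot be told apart in this comparison.

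Among 15 other factors known to act on CD274 transcription, 3 were higher and 2 lower past 2-fold with PHA665752, beside 13.1% of all genes higher and 8.04% lower. FOSL1, a FOS-family subunit of AP-1, gave 8349 under DMSO, 703.2 under PHA665752, 6712 under sc siRNA and 4010.4 under MET siRNA, with log2 ratios of -3.36 ± 0.20 (SE) and -0.79 ± 0.20 under the MET treatments. WWTR1 (TAZ), a co-activator of TEAD factors, gave 5881, 1102, 5596 and 3578, with log2 ratios of -2.20 ± 0.20 and -0.69 ± 0.20. These genes shared with CD274 the order of the arrays with PHA665752 lowest and MET siRNA next. They were named for ratios past 2-fold, so their low level with PHA665752 was part of the choice. The same order was seen for other genes, MYC, YAP1 and TEAD1 of this list among them. Its share among all genes was not counted. The AP-1 subunits FOS, JUND and JUNB were higher with PHA665752, at 1.96 ± 0.20, 1.22 ± 0.20 and 1.16 ± 0.20, and at 0.42, 0.62 and 0.43 with MET siRNA. The controls differed too, with -1.33, -0.19 and -0.96 in turn for sc siRNA over DMSO. With the 50th percentile as the scaling point JUND gave 0.98 and JUNB 0.92 with PHA665752, short of 2-fold.

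Of the CUL3-SPOP ligase genes and their cyclin D-CDK4 input, 8 of 9 had a ratio. The D-type cyclins, partners of the CDK4 kinase that phosphorylates SPOP, did not move as a group with PHA665752. CCND1 gave -1.62 ± 0.20 (SE), CCND3 gave -1.50 ± 0.20 and CCND2 gave 1.29 ± 0.21, the last at 0.98 under normexp. CUL3, the scaffold, gave -0.18 ± 0.20 with PHA665752, on a probe well above background on every array. SPOPL, a paralogue of SPOP, gave 0.10 ± 0.20.

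The COP9 signalosome subunits other than COPS5 had ratios for 9 of 9 genes. With PHA665752 8 of them were below 0, with a median of -0.26, and 45.1% of all genes were below 0. Among the 8, COPS4 at -0.0006 and COPS2 at -0.03 lay within the reading error, and such signs depend on the scaling. COPS3 was the one past 2-fold, with -1.01 ± 0.20 (SE), and it gave -0.90 after quantile normalization. GPS1, the first subunit, gave -0.40 ± 0.20. With MET siRNA 9 of 9 were below 0, within a range of -0.24 to -0.08, as was COPS5 at -0.10 ± 0.20, and 53.0% of all genes were below 0 in that comparison. Each of these 9 ratios lay within 2 SE of 0. A shift of the complex as a whole was not tested.

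In the CMTM family the members other than CMTM6 and CMTM4 had ratios for 4 of 6 genes and 0 past 2-fold. CMTM7 gave -0.92 ± 0.20 (SE) with PHA665752, or -1.16 with the 50th percentile, past 2-fold, and CMTM3 gave 0.20 ± 0.20. GSK3A, the paralogue of GSK3B, gave -0.19 ± 0.20 with PHA665752 and 0.20 ± 0.20 with MET siRNA, and 0 of the 7 genes of its list, which also holds the beta-TrCP ligase, were past 2-fold.

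Among 14 other ubiquitin ligases, deubiquitinases and chaperones, 3 were higher and 1 lower past 2-fold with PHA665752, beside 13.1% of all genes higher and 8.04% lower. CBLB, a ubiquitin ligase of signalling receptors, gave 2.05 ± 0.20 (SE) with PHA665752. Its second probe was dim with DMSO and gave a bound of 0.89, and the median over its probes was 1.47. The deubiquitinases USP9X and CYLD gave 1.31 ± 0.21 and 1.04 ± 0.20, and CYLD fell to 0.79 with the 50th percentile. The chaperone HSP90AA1, with which STUB1 works, gave -1.05 ± 0.20, or -0.95 under normexp. The list of glycosylation, palmitoylation and trafficking genes had 0 of 10 past 2-fold.

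Receptors and binding partners were read too. PDCD1, which encodes PD-1 itself, gave signals of 67.6 under DMSO, 54.1 under PHA665752, 61.7 under sc siRNA and 56.4 under MET siRNA, and its log2 ratios were -0.11 ± 0.22 (SE) and -0.18 ± 0.23 under the MET treatments. CD80, which can bind PD-L1, was not well above background on any array and gave no ratio.

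**Figure D5:**
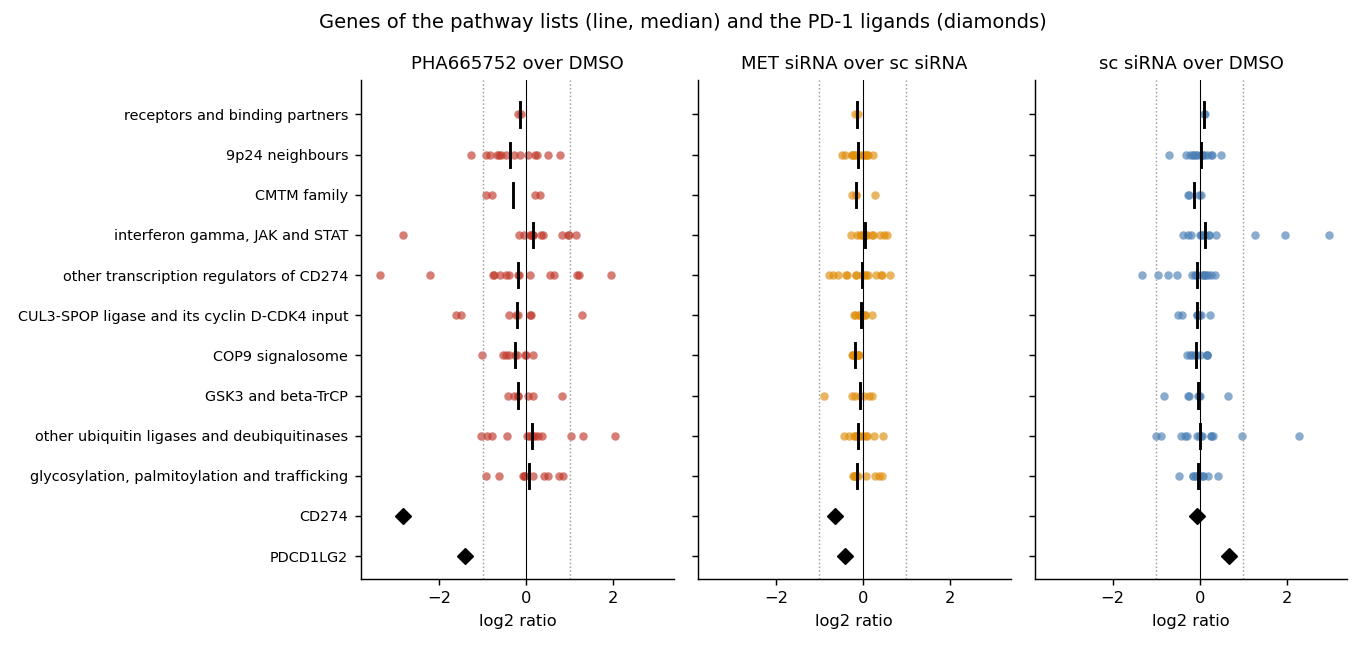
Log2 ratios (x axis, dotted lines 2-fold) of the genes of the 10 lists (rows, 1 point per gene, line at the median) and of CD274 and PDCD1LG2 (diamonds) in the 3 comparisons (panels). With PHA665752 8 genes lie past each dotted line (4 higher and 15 lower when scaled to the 50th percentile), and with MET siRNA none of the 97 genes does.

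The genes whose pattern was most like that of CD274 were sought among 13073 genes with ratios in all 3 comparisons, by the Euclidean distance between the log2 ratios. The nearest were AEN, a nuclease induced by p53, at a distance of 0.16, MYH16 at 0.26, LAMA2, a laminin chain, at 0.31, GPR65, a proton-sensing receptor, at 0.32, and TMEM158 at 0.33. PDCD1LG2 was 587th in this order, at 1.62. The nearest to PDCD1LG2 were MLKL, the effector of necroptosis, at 0.11, LONRF3 at 0.27, HK2, a hexokinase, at 0.34, DOK3, an adaptor protein, at 0.35, and MAPK13, a p38 kinase, at 0.37. CD274 was 5701st in that order. The distances rest on 4 arrays and 3 ratios and are given as a description.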

How the data were processed

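Groups were those of the labels. The authors deposited linear intensities of single-colour arrays read with Feature Extraction (11.5.1.1 in the file headers), background-subtracted and detrended, without normalization between arrays. Their series matrix holds the same intensities within 0.06 for the 33128 probes spotted once. Spots marked as outliers were left out (1.69% to 5.58% per array). The rest were averaged per probe on the log2 scale, less the 75th percentile of the array (signals of 831 to 990.1). No spot was saturated. Probes were named by accession through RefSeq (GRCh38.p14; the array was annotated on hg19), which named 25771 of 34127. The brightest probe with a value on every array stood for its gene. Probes dim on 1 array of a comparison gave bounds, and those dim on both gave no ratio. With 1 array per group, no test was made; the number of arrays limits the precision.

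The 9 genes and the lists were chosen with earlier results of these data known. Named genes were these 9, MET, list genes past 2-fold under a MET treatment (at most 5 per list), fixed relatives and the 5 nearest patterns. Ratio rules recovered 200 of 200 changed probes, and called 0 unchanged ones, in simulated data for PHA665752 over DMSO (33770 probes). These data were a copy of the DMSO array with small noise, and changes larger than 2-fold were put into bright probes only. The outcome was thus set by the design. It checks the arithmetic and gives no error rate for dim probes or between cultures. Tools were Python 3.11.15, numpy 2.4.6, pandas 2.3.3, matplotlib 3.10.9, R 4.3.3 and limma 3.58.1 (normexp). There were 9 alternatives, which the closing section gives. Some items are not reported here.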

Additional observations from a re-analysis of the deposited data

How the results depend on the processing

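No paired analysis was possible because each condition had a single array, and the replicate numbers only name the samples. Of the 9 alternatives, none turned the direction of a ligand ratio under a MET treatment. CD274 with PHA665752 lay between -3.08 and -2.64 (-3.08 with the 50th percentile), and with MET siRNA between -0.95 and -0.56 (-0.95 with the median of probes well above background). PDCD1LG2 with PHA665752 gave -1.65 with the 50th percentile, -1.67 after quantile normalization and -0.68 under normexp. With MET siRNA it gave -0.72 with the median of probes well above background. Under normexp its MET siRNA ratio was -0.31, less than 2 SE from 0 (SE 0.21). Normexp left 1 of the 9 genes past 2-fold with PHA665752, CD274, and 10 of the list genes. With MET siRNA 2 list genes were past 2-fold with the median of probes well above background, and 3 without a filter on dim probes. The 50th percentile shifted the median of all genes by -0.25 (PHA665752), and the median of probes well above background shifted it by -0.30 (MET siRNA). The settings for dim probes could not move a ratio of the 9 genes, whose probes were well above background on every array. The median over probes could move only CD274 and PDCD1LG2. Counts of unmoved values include these fixed ones. For the other ratios of the 9 genes, 193 of 207 values moved by less than the reading error, 15 changed sign, and 0 were past 2-fold. In particular the MET siRNA ratios of JAK2 (-0.12) and SPOP (-0.03) turned negative with the median of probes well above background. The ratios of PDCD1LG2 with PHA665752 rest on the dimmest signals of the 9 genes and are limited by signal over background. CUL3 gave 0.70 with PHA665752 as the median over its probes, the second of which was dim with DMSO. Differences between cultures were not measured.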
